A study of Mus musculus with 16 samples.

Results

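The 9 genes described here are the Wnt ligands Wnt3, Wnt3a, Wnt4, Wnt5a and Wnt6 and the canonical Wnt target genes Axin2, Lef1, Dkk1 and Sp5. They were chosen by name, and every probe set that the platform annotation pairs with one of these symbols was taken. That gave 17 of 45037 probe sets, for 9 of 18193 genes with a symbol. Wnt5a had 4 probe sets, Wnt4, Wnt6, Axin2, Lef1 and Dkk1 had 2 each, and Wnt3, Wnt3a and Sp5 had 1 each. Expression was measured in whole female mouse embryos of 11 to 14 somites, a stage just before the cranial neural folds meet, with 1 embryo on each of 16 arrays. The 4 groups of 4 embryos were BALB/cCrl embryos homozygous for the Cecr2Gt45Bic gene trap allele, BALB/cCrl wild types, FVB/N embryos homozygous for the same allele, and FVB/N wild types. Cecr2 encodes a bromodomain protein of chromatin remodelling complexes, and mice that lack it are known for failed closure of the cranial neural tube, more often on some strains than on others. Both trap lines were congenic, with more than 10 generations of backcrossing. For BALB/cCrl, heterozygous parents were mated, whereas the FVB/N mutants had homozygous parents, so that in FVB/N the genotype and the cross cannot be told apart. Between the mutants of the strains, the strain and the cross cannot be told apart either. The other comparisons that use the FVB/N mutants carry the same limit. No somite count per embryo and no litter is in the sources used here. A whole embryo holds many tissues, and fewer cells of a type and less RNA per cell cannot be told apart in these values.

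The labels were checked before the members were compared. Cecr2 was lower in the mutants of both strains by both of its probe sets, with log2 differences from -2.96 to -2.0 and no overlap between groups. Arrays of a group correlated at 0.995 to 0.998, and the array medians lay between 6.35 and 6.42 on the log2 scale. By its mean over the 16 arrays, every measured marker of neural progenitors, paraxial mesoderm, tail bud, surface ectoderm, cardiac muscle, primitive erythroid cells and yolk sac endoderm lay above the range of 9 probe sets of Y-linked genes, which female embryos lack (3.03 to 4.53). Of the 3 measured decidua and trophoblast markers, 2 lay within it by the same mean, and Prl8a2 averaged 5.77. The mean of the 3 reached 5.95 in a BALB/cCrl mutant (group median 4.31) and 5.66 in a BALB/cCrl wild type (group median 4.47). In FVB/N it reached 4.84 in mutants and 4.42 in wild types. A pair of FVB/N embryos stood apart in the tail bud markers T, Tbx6, Msgn1, Cdx2 and Nkx1-2, whose mean log2 level was 7.78 in FVB/N mutant 4, against 8.58 to 8.72 in the other FVB/N mutants. In FVB/N wild type 3 it was 7.80, while the other FVB/N wild types had 8.74 to 8.93 and the BALB/cCrl embryos 8.52 to 8.92. For Wnt3a, Wnt5a, Axin2, Lef1 and Dkk1 some of the differences are given with and without these embryos.

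Wnt proteins are secreted, lipid-modified signals that bind Frizzled receptors. In the canonical branch, binding stabilises beta-catenin, which enters the nucleus and joins TCF/LEF factors at target genes, while other Wnts, with Wnt5a as the best known, act mainly through planar cell polarity and related routes without beta-catenin. In the early embryo Wnt3 and Wnt3a are known for their part in the primitive streak and the tail bud, Wnt signals from the dorsal midline pattern the neural tube, and planar cell polarity is needed for the neural plate to narrow and close. Axin2, Lef1, Dkk1 and Sp5 are widely read as reporters of canonical signalling, and Axin2 and Dkk1 feed back on it as inhibitors.

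The stretch just before the transcription start was read for each member from RefSeq promoters of GRCm38.p6, which matched 8 of the 9 genes, all but Wnt5a, with 11 promoters. Each window of 250 bases was searched on both strands for the TCF/LEF binding letters CTTTGAA and CTTTGAT, which do not overlap one another. At least 1 match stood in 2457 of all 32851 promoter windows (7.48%). Among the members the windows of Dkk1 and Sp5 held 1 match each, and those of Wnt3, Wnt3a, Wnt4, Wnt6, Axin2 and Lef1 held none of these letters. The windows of Dkk1 and Sp5 are shown because they hold a match, and that of Wnt3a because its level varied with that of Dkk1 from embryo to embryo. All are written in the direction of the gene, and capitals mark the match.
Dkk1: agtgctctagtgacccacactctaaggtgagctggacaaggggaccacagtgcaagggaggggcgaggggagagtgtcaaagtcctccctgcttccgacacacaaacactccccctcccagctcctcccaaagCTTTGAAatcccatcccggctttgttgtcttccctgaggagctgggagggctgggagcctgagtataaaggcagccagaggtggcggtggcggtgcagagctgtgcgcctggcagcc
Sp5: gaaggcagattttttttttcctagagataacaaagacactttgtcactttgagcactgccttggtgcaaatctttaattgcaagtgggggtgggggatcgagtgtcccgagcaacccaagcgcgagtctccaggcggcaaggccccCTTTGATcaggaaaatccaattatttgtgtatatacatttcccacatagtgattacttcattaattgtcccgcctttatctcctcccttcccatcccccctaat
Wnt3a: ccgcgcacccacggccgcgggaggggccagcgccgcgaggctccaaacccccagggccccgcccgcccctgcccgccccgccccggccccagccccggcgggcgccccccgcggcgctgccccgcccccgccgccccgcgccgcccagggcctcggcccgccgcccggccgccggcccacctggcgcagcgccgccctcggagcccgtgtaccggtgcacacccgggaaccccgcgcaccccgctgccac
The Dkk1 window is chr19:30549497-30549746 on the minus strand, with its match 117 to 111 bases before the start. The Sp5 window is chr2:70474673-70474922 on the plus strand, with its match 104 to 98 bases before the start. The Wnt3a window is chr11:59290752-59291001 on the minus strand. G and C made up 60.8% of the bases in the Dkk1 window, 46% in that of Sp5 and 87.6% in that of Wnt3a.

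The first comparison asked whether the Wnt genes differed between Cecr2 mutants and wild types. None of the 17 probe sets passed the limma test in either strain. In BALB/cCrl 0 of 17 had an adjusted p under 0.05, against 0.02% of all 45037 probe sets, and in FVB/N it was 0 of 17, against 0.595%. An unadjusted p under 0.05 was found for 2 of the 17 in BALB/cCrl, 1 probe set each of Wnt5a and Axin2, and for 0 in FVB/N. In neither strain did all mutants lie above or below all wild types for any of the 17, while 5.12% of all probe sets separated the groups in this way in BALB/cCrl and 6.83% in FVB/N. The median log2 difference of the 17, mutant minus wild type, was 0.013 in BALB/cCrl (0.0051 over all probe sets) and -0.05 in FVB/N (0.0097 over all). The data also bounded these differences. For the probe sets near background, Wnt3 and Wnt5a by 1456976_at, a narrow interval says little about the RNA. The 95% interval lay within 1.5-fold in both directions for 15 of 17 probe sets in BALB/cCrl and for 14 of 17 in FVB/N, and it was wider for 1 Lef1 probe set in both strains, 1 Wnt5a probe set in BALB/cCrl and both Dkk1 probe sets in FVB/N. Without FVB/N wild type 3 and FVB/N mutant 4 the FVB/N differences of the 17 ran from -0.37 (Dkk1) to 0.06 (Axin2), and 0 of them passed.

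Taking both strains together, the mean of the 2 genotype effects passed for 0 of 17 probe sets, against 0.455% of all. All 17 intervals lay within 1.5-fold, those of the probe sets near background included. The unadjusted p was under 0.05 for 2 of them, a Wnt5a probe set at 0.22 (SE 0.098, adjusted p = 0.32) and a Dkk1 probe set at -0.25 (SE 0.112, adjusted p = 0.33). Whether the trap acted differently in the strains was tested as an interaction, the BALB/cCrl effect minus the FVB/N effect. It passed for 0 of 17 probe sets, against 0.0755% of all, with an unadjusted p under 0.05 for 0 of them. Its intervals were wider, with 11 of 17 within 1.5-fold.

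**Figure D1:**
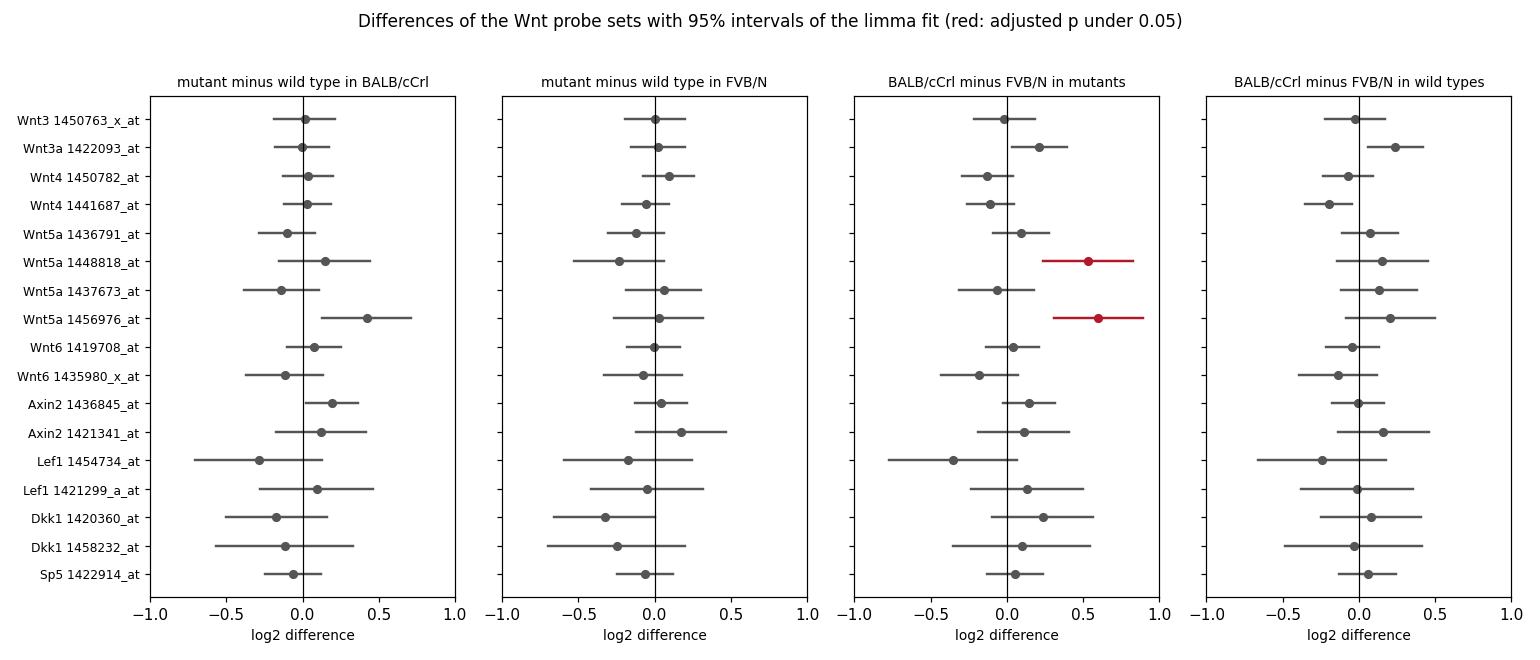
Log2 differences of the 17 Wnt probe sets (points) with the 95% intervals of the limma fit (bars), for mutant minus wild type in each strain and for the strains, BALB/cCrl minus FVB/N, among mutants and among wild types, 4 embryos per group. Only the Wnt5a probe sets 1448818_at (0.53) and 1456976_at (0.60) passed, both in the comparison of the mutants, and all intervals of mutant minus wild type in FVB/N include 0.

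Between the strains, the wild types gave 0 of 17 calls, against 6.74% of all probe sets, with an unadjusted p under 0.05 for 2 of them. The median difference of the 17, BALB/cCrl minus FVB/N, was -0.0082 (0.0068 over all). In 2 of the 17 the strains did not overlap, Wnt3a (higher in BALB/cCrl) and Wnt4 by 1441687_at (lower in BALB/cCrl), while 15% of all probe sets separated the wild types in this way. Between the mutants of the strains 2 of 17 probe sets passed, against 10.8% of all, and both belong to Wnt5a and were higher in BALB/cCrl. These 2 were also the ones without overlap between the mutants, a state found in 13.2% of all probe sets. The median of the 17 in mutants was 0.09 (4.8e-04 over all). These shares of the members lay below or near those of the whole array. The comparisons share groups with one another: each mutant group serves in a genotype and a strain comparison.

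**Figure D2:**
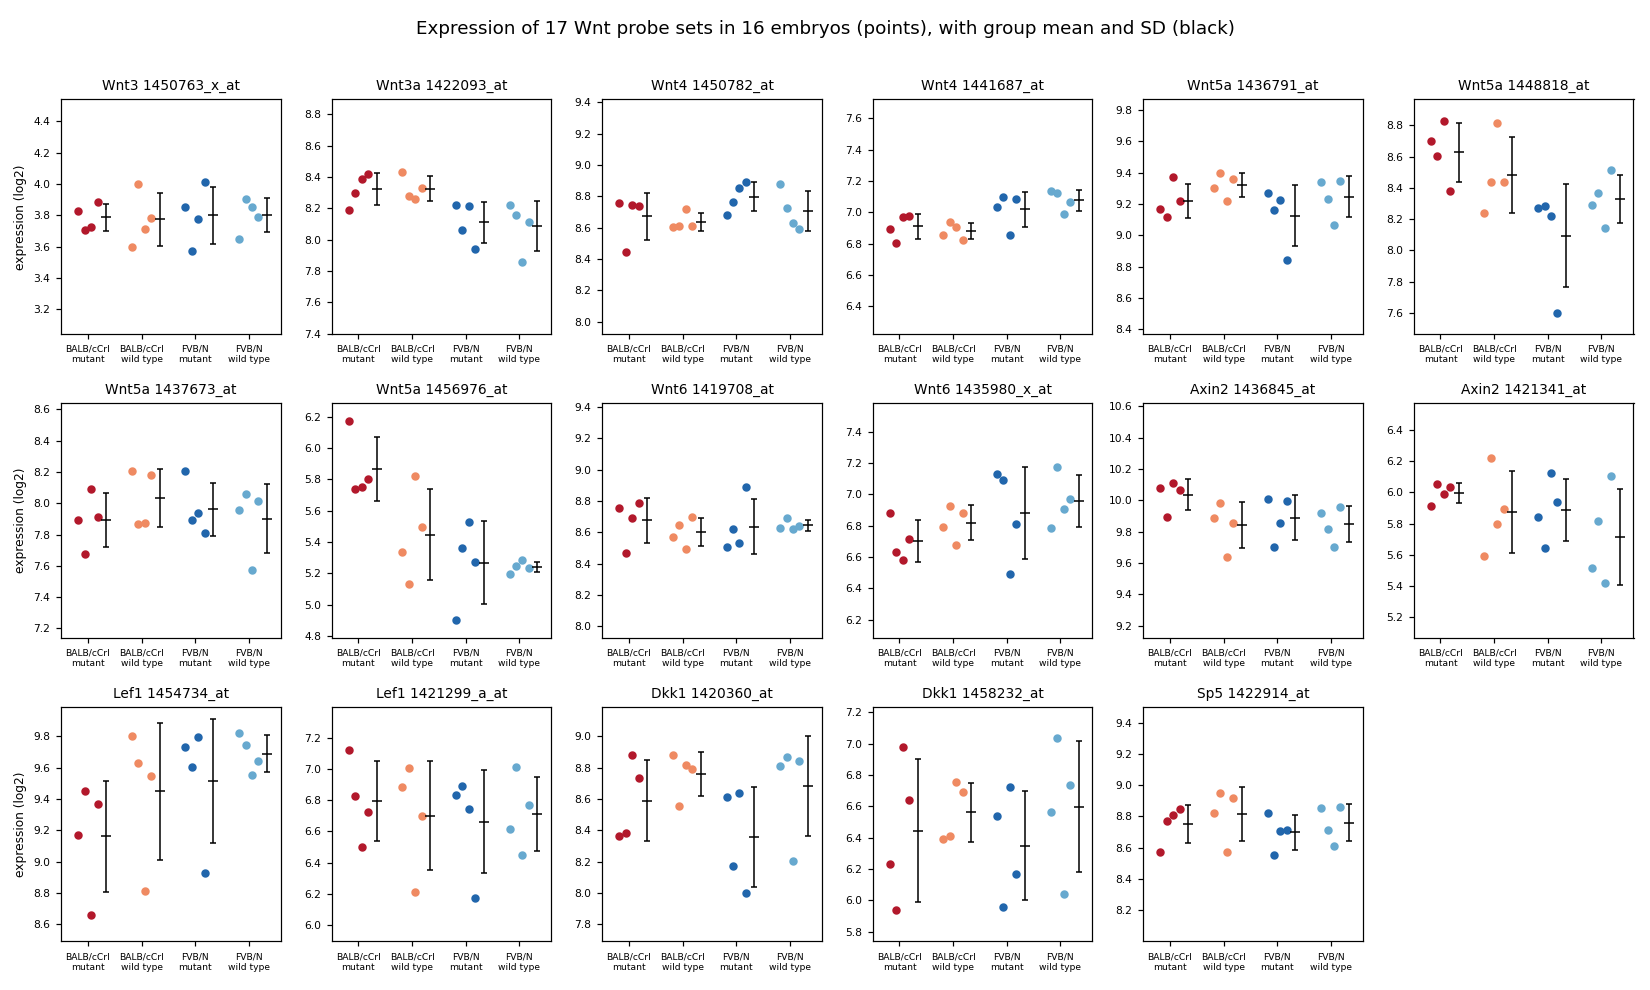
Log2 expression of each of the 17 Wnt probe sets in the 16 embryos (points, in the order of their replicate numbers), with the group mean and SD in black. BALB/cCrl mutants, BALB/cCrl wild types, FVB/N mutants and FVB/N wild types stand from left to right, and each panel has its own axis. Mutants and wild types of a strain overlap in all 17 panels. The Wnt5a panels 1448818_at and 1456976_at show all BALB/cCrl mutants above all FVB/N mutants, and between wild types the strains do not overlap for Wnt3a and for Wnt4 by 1441687_at.

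Wnt3a (chromosome 11, 59248036 to 59290751 in GRCm38.p6) maintains the progenitors of the tail bud and signals in the dorsal neural tube. Its log2 expression by probe set 1422093_at was 8.19, 8.30, 8.39 and 8.42 in BALB/cCrl mutants, against 8.43, 8.28, 8.26 and 8.33 in BALB/cCrl wild types. It was 8.22, 8.06, 8.21 and 7.94 in FVB/N mutants, against 8.22, 8.16, 7.86 and 8.11 in FVB/N wild types. Mutants and wild types of a strain overlapped almost wholly, with a difference of -0.0027 in BALB/cCrl (95% interval -0.18 to 0.18) and 0.023 in FVB/N (-0.16 to 0.20). All 4 BALB/cCrl wild types lay above all 4 FVB/N wild types, by 0.24 on average (SE 0.086), without passing (adjusted p = 0.12). The mutants differed by 0.21 in the same direction (SE 0.086, adjusted p = 0.13). The lowest embryo of each FVB/N group was the one low in tail bud markers, FVB/N mutant 4 and FVB/N wild type 3, and without these 2 the strain differences were 0.16 in mutants and 0.16 in wild types. What part the tail bud markers have in the strain difference was not tested.

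Wnt3 (chromosome 11, 103774175 to 103818021), the ligand needed to form the primitive streak, gave values near the background of the arrays. Its probe set 1450763_x_at lay between 3.57 and 4.01 in all 16 embryos, inside the range of the Y-linked probe sets. In the authors' gcRMA tables it averaged 2.13 to 2.14, at or within 0.1 of the lowest mean of the table, where 39.6% to 39.8% of all probe sets lie. Its differences in the 4 comparisons of 2 groups ran from -0.026 to 0.013, and at this signal they say little about Wnt3 RNA.

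Wnt4 (chromosome 4, 137277635 to 137299501), a ligand known for its part in kidney, gonad and neural tube, was read by 2 probe sets. By 1450782_at the BALB/cCrl mutants had 8.76, 8.45, 8.74 and 8.74, against 8.60, 8.61, 8.72 and 8.61 in BALB/cCrl wild types, and the FVB/N mutants had 8.68, 8.77, 8.85 and 8.89, against 8.88, 8.72, 8.63 and 8.59 in FVB/N wild types. By 1441687_at they had 6.89, 6.81, 6.97 and 6.98 in BALB/cCrl mutants, against 6.85, 6.94, 6.91 and 6.82 in BALB/cCrl wild types, and 7.03, 7.10, 6.85 and 7.09 in FVB/N mutants, against 7.14, 7.12, 6.99 and 7.07 in FVB/N wild types. The genotypes overlapped by both probe sets in both strains, with differences between -0.06 and 0.09. By 1441687_at every BALB/cCrl wild type lay below every FVB/N wild type (-0.20, SE 0.074, adjusted p = 0.14). The other probe set gave -0.07 for the same comparison (SE 0.080, adjusted p = 0.70), with overlap.

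Wnt5a (chromosome 14, 28504543 to 28527448), the main ligand of the planar cell polarity route and of tail bud outgrowth, was the one member with calls, and its 4 probe sets did not act alike. By 1448818_at its level was 8.70, 8.60, 8.83 and 8.38 in BALB/cCrl mutants, against 8.27, 8.29, 8.22 and 7.60 in FVB/N mutants. The lowest BALB/cCrl mutant thus lay above the highest FVB/N mutant, and the difference was 0.53 (SE 0.142, 1.45-fold, adjusted p = 0.019). FVB/N mutant 4, the embryo low in tail bud markers, lay farthest down, and without it the difference was 0.37 and no longer passed (adjusted p = 0.056). The call was also lost without BALB/cCrl mutant 1 (0.51, adjusted p = 0.056), without BALB/cCrl mutant 3 (0.46, adjusted p = 0.075), without FVB/N mutants 3 and 4 (0.35, adjusted p = 0.13) and without FVB/N wild type 3 and FVB/N mutant 4 (0.37, adjusted p = 0.053). The wild types showed no such gap by this probe set. They had 8.24, 8.43, 8.82 and 8.44 in BALB/cCrl, against 8.29, 8.37, 8.14 and 8.51 in FVB/N, a difference of 0.15 (SE 0.142, adjusted p = 0.63). The interaction of this probe set was 0.38 and did not pass the limma test (SE 0.201, adjusted p = 0.68). Between genotypes in FVB/N this probe set differed by -0.23 (SE 0.142, adjusted p = 0.53), and by -0.13 without FVB/N wild type 3 and FVB/N mutant 4 (adjusted p = 0.79).

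By 1456976_at Wnt5a was at 6.17, 5.74, 5.75 and 5.81 in BALB/cCrl mutants, against 4.90, 5.36, 5.53 and 5.27 in FVB/N mutants. These groups did not overlap either, and the difference was 0.60 (SE 0.139, 1.52-fold, adjusted p = 0.0070), which passed under all 26 alternatives that were run for it, with an adjusted p of at most 0.035. The same probe set stood at 5.34, 5.13, 5.82 and 5.50 in BALB/cCrl wild types, so that the BALB/cCrl mutants exceeded them by 0.42 (SE 0.139) with 1 wild type among the mutant values, an unadjusted p of 0.0069 and an adjusted p of 0.39. In FVB/N wild types it stood at 5.20, 5.25, 5.28 and 5.24. The BALB/cCrl wild types exceeded these by 0.21 (SE 0.139, limma adjusted p = 0.48). The interaction of this probe set was 0.39 and did not pass the limma test (SE 0.197, adjusted p = 0.65). The signal of this probe set was weak. In the authors' gcRMA tables it averaged 2.13 in FVB/N mutants and 2.13 in FVB/N wild types, at the lowest level of the table, and 2.53 in BALB/cCrl mutants against 2.19 in BALB/cCrl wild types. A gcRMA comparison of the mutant groups was not used here.

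The other Wnt5a probe sets gave no strain difference in the mutants. By 1436791_at the level was 9.17, 9.11, 9.37 and 9.22 in BALB/cCrl mutants, against 9.27, 9.16, 9.23 and 8.84 in FVB/N mutants, with a difference of 0.09 (SE 0.088, adjusted p = 0.60) and an interval of -0.09 to 0.28. By 1437673_at it was 7.89, 7.67, 8.09 and 7.91 in BALB/cCrl mutants, against 8.21, 7.89, 7.93 and 7.81 in FVB/N mutants, with a difference of -0.07 (SE 0.118, adjusted p = 0.81) and an interval of -0.31 to 0.18. From embryo to embryo within groups, the deviations of 1456976_at correlated with those of 1436791_at at r = -0.31 and with those of 1437673_at at -0.26, while 1436791_at and 1437673_at correlated at 0.68 (16 embryos, a description). Those of 1448818_at correlated with 1456976_at, the other called probe set, at only 0.25. With 1436791_at they correlated at 0.59 and with 1437673_at at 0.26. The difference of Wnt5a between the mutants of the strains, which also differed in cross, therefore stood in 2 of its 4 probe sets. Markers of other tissues moved in the same comparison. The primitive erythroid markers Hbb-bh1, Hba-x, Hbb-y and Alas2 all passed with higher levels in BALB/cCrl mutants, and the mean log2 level of these 4 ran from 13.0 to 13.2 there, against 12.3 to 12.9 in FVB/N mutants. Single markers of 3 further lists passed as well, the neural progenitor factor Sox3 (0.31, adjusted p = 0.012), the surface ectoderm factor Grhl2 (-0.29, adjusted p = 0.022) and the cardiac actin gene Actc1 (-0.24, adjusted p = 0.021). The other markers of these lists did not pass. Higher averages in BALB/cCrl mutants were seen for 4 of 5 neural progenitor, 0 of 5 surface ectoderm and 3 of 5 cardiac markers. Actc1 thus went against most of its list. All 5 tail bud markers averaged higher in BALB/cCrl mutants, by 0.04 to 0.34, and 0 of the 5 passed. These averages include FVB/N mutant 4, the embryo low in tail bud markers. The median of the mean tail bud level was 8.64 in BALB/cCrl mutants and 8.65 in FVB/N mutants. The part of these markers in the Wnt5a result was not tested.

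Wnt6 (chromosome 1, 74754342 to 74785322), a ligand of the surface ectoderm, gave close values by 1419708_at, with 8.76, 8.47, 8.69 and 8.79 in BALB/cCrl mutants, against 8.57, 8.64, 8.50 and 8.69 in BALB/cCrl wild types. The FVB/N mutants had 8.50, 8.62, 8.53 and 8.89, against 8.63, 8.69, 8.62 and 8.64 in FVB/N wild types. The FVB/N wild types were the tightest of these groups (SD 0.033), and the differences of the genotypes were 0.07 in BALB/cCrl and -0.0073 in FVB/N (SE 0.084 each). By 1435980_x_at the values lay between 6.58 and 6.88 in BALB/cCrl mutants and between 6.49 and 7.13 in FVB/N mutants, a difference of -0.18 (SE 0.121, adjusted p = 0.43). Without FVB/N mutants 3 and 4 that difference was -0.41 and passed (adjusted p = 0.030), and it then rested on 2 FVB/N mutants.

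Axin2 (chromosome 11, 108917828 to 108950783) encodes a scaffold of the beta-catenin destruction complex and is a direct target in nearly all tissues with canonical signalling. By 1436845_at it was at 10.08, 9.89, 10.11 and 10.06 in BALB/cCrl mutants, against 9.89, 9.98, 9.64 and 9.86 in BALB/cCrl wild types. It was at 10.01, 9.70, 9.85 and 9.99 in FVB/N mutants, against 9.92, 9.81, 9.70 and 9.96 in FVB/N wild types. The BALB/cCrl mutants exceeded their wild types by 0.19 (SE 0.082, unadjusted p = 0.028) with overlap and an adjusted p of 0.47, and in FVB/N the difference was 0.04 (SE 0.082, adjusted p = 0.88). The second probe set, 1421341_at, gave 0.12 in BALB/cCrl (SE 0.142) and 0.17 in FVB/N (SE 0.142), neither past the test. Without FVB/N wild type 3 and FVB/N mutant 4 the FVB/N differences of Axin2 were -0.04 by the first probe set and 0.06 by the second. By the first probe set the 95% interval in BALB/cCrl ran from 0.024 to 0.37, or from 1.02-fold to 1.29-fold.

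Lef1 (chromosome 3, 131110297 to 131224357) encodes one of the TCF/LEF factors through which beta-catenin acts. By 1454734_at it was at 9.17, 9.45, 8.66 and 9.37 in BALB/cCrl mutants, against 9.80, 9.63, 8.81 and 9.55 in BALB/cCrl wild types, and at 9.73, 9.61, 9.80 and 8.93 in FVB/N mutants, against 9.82, 9.74, 9.55 and 9.64 in FVB/N wild types. In 3 of the 4 groups 1 embryo lay far below the other 3, namely BALB/cCrl mutant 3, BALB/cCrl wild type 3 and FVB/N mutant 4. The differences were -0.29 in BALB/cCrl (SE 0.200, adjusted p = 0.68) and -0.17 in FVB/N (SE 0.200, adjusted p = 0.78), and the interval in BALB/cCrl reached from -0.71 to 0.13. Without FVB/N wild type 3 and FVB/N mutant 4 the FVB/N difference was -0.025 (adjusted p = 0.98). The second probe set, 1421299_a_at, had the same low embryos in these 3 groups, and its difference in BALB/cCrl was 0.09 (SE 0.177), opposite in sign. Between the mutants of the strains Lef1 by 1454734_at differed by -0.35 (SE 0.200, adjusted p = 0.32), and without FVB/N wild type 3 and FVB/N mutant 4 by -0.55 (adjusted p = 0.077), neither past the test.

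Dkk1 (chromosome 19, 30545876 to 30549496) encodes a secreted inhibitor that blocks the co-receptors Lrp5 and Lrp6 and is itself induced by canonical signals. By 1420360_at its level was 8.37, 8.38, 8.88 and 8.73 in BALB/cCrl mutants, against 8.88, 8.56, 8.82 and 8.79 in BALB/cCrl wild types. It was 8.61, 8.17, 8.64 and 8.0 in FVB/N mutants, against 8.81, 8.87, 8.20 and 8.84 in FVB/N wild types. The mutants lay lower on average in both strains but overlapped the wild types, by -0.17 in BALB/cCrl (SE 0.158, adjusted p = 0.77) and -0.33 in FVB/N (SE 0.158, adjusted p = 0.42). Without FVB/N wild type 3 and FVB/N mutant 4 the FVB/N difference was -0.37 (adjusted p = 0.41). The second probe set, 1458232_at, followed the first from embryo to embryo (r = 0.86 over 16 embryos) and gave -0.12 in BALB/cCrl (SE 0.214) and -0.25 in FVB/N (SE 0.214). No difference of Dkk1 passed, and by the first probe set the 95% interval in FVB/N ran from -0.66 to 0.0038.

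Sp5 (chromosome 2, 70474923 to 70477726) encodes a zinc finger factor that acts beside beta-catenin in the streak and tail bud. Its probe set 1422914_at gave 8.57, 8.77, 8.81 and 8.85 in BALB/cCrl mutants, against 8.82, 8.95, 8.57 and 8.92 in BALB/cCrl wild types, and 8.82, 8.55, 8.71 and 8.71 in FVB/N mutants, against 8.85, 8.71, 8.61 and 8.86 in FVB/N wild types. The groups overlapped throughout, and the 4 differences lay between -0.06 and 0.06 (SE 0.088 each). For mutant minus wild type the 95% interval of Sp5 ran from -0.25 to 0.12 in both strains.

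The members differed in how much embryos of one group varied. The pooled SD within groups was lowest for Wnt4 by 1441687_at (0.081) and highest for Dkk1 by 1458232_at (0.368), followed by Lef1 by 1454734_at (0.350). Low values also gathered in single embryos. FVB/N wild type 3 was the lowest of its group in 13 of 17 probe sets, whereas it was the lowest in 25.2% of all probe sets on the array, and BALB/cCrl mutant 2 was the lowest of its group in 9 (31.1% of all probe sets) and BALB/cCrl wild type 3 in 8 (29.1% of all). Probe sets of 1 gene share these counts.

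To see which members varied together, the brightest probe set on average stood for each gene, the group mean was removed, and the deviations of the 16 embryos were correlated over the 36 pairs of members. Wnt3a and Dkk1, a ligand and an inhibitor, were the 1 pair that passed. Their deviations had Pearson's r = 0.90 (permutation within groups, two-sided, p = 9.6e-04, adjusted p = 0.035 over 36 pairs) and Spearman's rho = 0.79 (permutation p = 0.0041, adjusted p = 0.073). In 15 of 16 embryos both genes lay on the same side of their group means. Within strains r was 0.76 in the 8 BALB/cCrl embryos and 0.96 in the 8 FVB/N embryos. FVB/N wild type 3 and FVB/N mutant 4 lay farthest down in both genes, and r over the other 14 deviations was 0.81. With group means taken anew without these 2 embryos, r was 0.78 and did not pass (permutation, adjusted p = 0.23). Leaving out each embryo in turn gave r between 0.85 and 0.93, and the call was lost in 7 of these 16 fits, most of all without FVB/N wild type 3 (permutation, adjusted p = 0.29). Among 12222 genes with a mean log2 level of 6 or more, each of the pair was the other's closest gene.

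**Figure D3:**
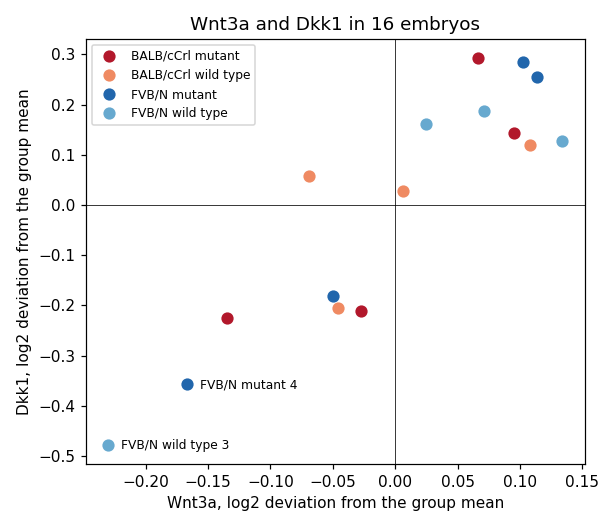
Deviation of Dkk1 (vertical) from its group mean against that of Wnt3a (horizontal), in log2 units, for the 16 embryos by group. The points rise together (r = 0.90), and FVB/N wild type 3 and FVB/N mutant 4, named in the plot, lie farthest down in both genes.

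The next pairs did not pass. Wnt5a correlated with Dkk1 at r = 0.75 (rho = 0.80) and with Wnt3a at r = 0.75 (rho = 0.66), each with a permutation adjusted p of 0.059 for r, and Axin2 correlated with Sp5 at r = 0.74 (rho = 0.72, permutation adjusted p = 0.059 for r). Without the 2 embryos farthest from the median of the first gene these values were 0.55 for Wnt5a with Dkk1, 0.53 for Wnt3a with Wnt5a and 0.56 for Axin2 with Sp5. Other embryos left out raised them past the test, by permutation within groups. Without BALB/cCrl wild type 2, r was 0.84 for Wnt5a with Dkk1 (adjusted p = 0.026) and 0.79 for Wnt3a with Wnt5a (adjusted p = 0.040), and for Axin2 with Sp5 it was 0.89 without BALB/cCrl mutant 1 (adjusted p = 0.011) and 0.83 without BALB/cCrl mutant 2 (adjusted p = 0.033). The pair of Wnt5a and Axin2, at 0.38 over all embryos, passed without FVB/N mutant 4 (r = 0.82, permutation adjusted p = 0.0047). Lef1 correlated with Dkk1 at 0.18 over all embryos, with r = 0.73 in the 8 FVB/N embryos and -0.42 in the 8 BALB/cCrl embryos (a description). The plot of embryo deviations shows FVB/N mutant 4 and FVB/N wild type 3 low in T, Tbx6, Cdx2 and Nkx1-2, and the part of these markers in the correlations was not tested.

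**Figure D4:**
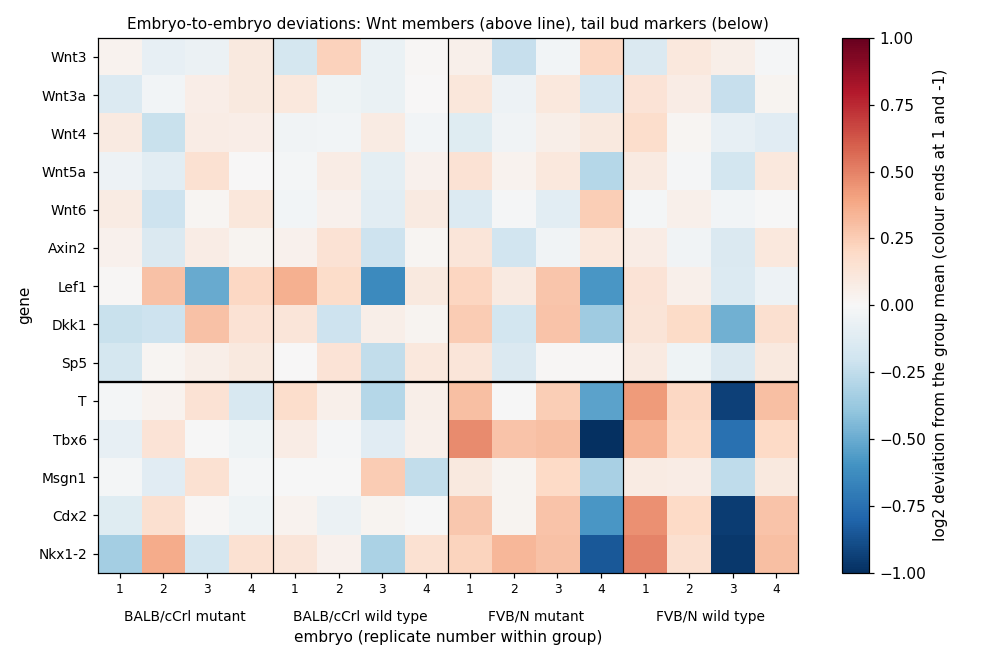
Log2 deviation from the group mean (colour) of the 9 Wnt genes, above the line, and 5 tail bud markers, below it, in each of the 16 embryos (columns), with 1 probe set per gene, that with the highest mean. FVB/N mutant 4 and FVB/N wild type 3 are the darkest blue columns of the tail bud rows and are blue in Wnt3a, Wnt5a, Lef1 and Dkk1 as well; the colour scale ends at 1 and -1.

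For each member but Wnt3 the 2 genes with the most alike deviations over the 16 embryos, out of 12222, were recorded as a description. They were Dkk1 (r = 0.90) and F3 (0.89) for Wnt3a, Wnt3a (0.90) and Fbxl14 (0.88) for Dkk1, and Adam19 (0.91) and Troap (0.90) for Wnt5a. For Wnt4 they were Nanos1 (0.93) and Ccdc92b (0.86), and for Wnt6 Mtx2 (0.92) and Maea (0.91). Wnt3 is left out here, since its values lay at background. Axin2 had Cnot9 (0.90) and Ddx41 (0.90), Lef1 had Srp68 (0.94) and Arih2 (0.94), and Sp5 had Gtpbp4 (0.92) and Prmt6 (0.90). The share of genes with an r of at least 0.6 in size was 2.6% for Dkk1 and 13% for Wnt6, so that many genes varied with Wnt6 and few with Dkk1.

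The rest of the pathway was read through 7 gene lists, other ligands, secretion, receptors, antagonists, R-spondins with Lgr receptors, beta-catenin transduction, and further targets. Of their 84 genes 83 were measured, with 173 probe sets. In BALB/cCrl 0 of 173 passed between mutants and wild types, and in FVB/N 1 of 173 did (0.578%, near the 0.595% of the array), with medians of 0.0085 and -0.03. That one belongs to Gsk3b, the kinase that marks beta-catenin for destruction. By 1451020_at it fell by 0.49 (SE 0.101, adjusted p = 0.034), with 8.58, 8.56, 8.54 and 8.18 in FVB/N mutants, against 8.82, 8.93, 9.09 and 8.99 in FVB/N wild types, and no overlap. It no longer passed without FVB/N mutant 4 (-0.39, adjusted p = 0.093), without FVB/N wild type 3 (-0.45, adjusted p = 0.13) and in 9 other settings, and the other 5 probe sets of Gsk3b gave differences from -0.68 to 0.36 in FVB/N without passing. The interaction passed for 0 of the 173.

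The mean genotype effect passed for 2 of 173 probe sets (1.16%, against 0.455% of the array), both of Frzb (chromosome 2, 80411970 to 80447396), a secreted antagonist that binds Wnt proteins directly. By 1448424_at Frzb was at 7.0, 6.88, 6.99 and 7.14 in BALB/cCrl mutants, against 7.50, 7.31, 7.26 and 7.52 in BALB/cCrl wild types, and at 7.20, 7.08, 6.98 and 6.93 in FVB/N mutants, against 7.48, 7.39, 7.25 and 7.47 in FVB/N wild types. In each strain the highest mutant thus lay below the lowest wild type, and over both strains Frzb fell by 0.37 (SE 0.062, adjusted p = 0.0078). In single strains the difference was -0.39 in BALB/cCrl (adjusted p = 0.18) and -0.35 in FVB/N (adjusted p = 0.077), neither past the test. The other probe set, 1416658_at, fell by 0.28 (SE 0.061, adjusted p = 0.045). By 1416658_at the FVB/N groups overlapped, with 8.065 in FVB/N mutant 2 and 8.059 in FVB/N wild type 3, while the BALB/cCrl groups did not. The call of 1448424_at was lost in 1 setting, without FVB/N mutants 3 and 4 (-0.32, adjusted p = 0.069), and that of 1416658_at in 16.

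Between strains the wild types gave 10 of 173 calls (5.78%, against 6.74% of the array), 3 higher and 7 lower in BALB/cCrl, and the mutants gave 17 (9.83%, against 10.8%), 7 higher and 10 lower. Other Wnt ligands, Wnt secretion genes and R-spondins with Lgr receptors had 0 calls in both, among 22, 5 and 12 probe sets. Of the receptors, Ror1, a co-receptor for Wnt5a, was lower in BALB/cCrl by 1429313_at, at -0.49 in mutants (SE 0.081, adjusted p = 3.3e-04) and -0.44 in wild types (SE 0.081, adjusted p = 0.0012). By 1429312_s_at Ror1 passed in wild types only, and that call was lost in 5 settings. By 1451014_at it passed in neither. There the BALB/cCrl mutants averaged 6.25, against 6.39 in FVB/N mutants, and the BALB/cCrl wild types 6.14, against 6.28 in FVB/N wild types. By 1418532_at and 1418533_s_at Fzd2 was higher in BALB/cCrl mutants than in FVB/N mutants (0.39 and 0.36), while by 1418534_at it was lower (-0.22). Of the antagonists, Znrf3, a ubiquitin ligase that removes Frizzled receptors, was higher in BALB/cCrl by 1435608_at, at 0.62 in mutants (SE 0.098, adjusted p = 2.0e-04) and at 0.56 in wild types (adjusted p = 6.9e-04). The wild-type call was lost in the gcRMA table (0.64, adjusted p = 0.059), and the other Znrf3 probe set, 1437646_at, gave -0.0073 in mutants and 0.018 in wild types. Dkk2 was lower in BALB/cCrl wild types, at -0.89 (SE 0.148, adjusted p = 4.0e-04). In mutants it was also lower in BALB/cCrl and passed, at -0.47, but that call was lost in 19 settings. The largest difference of the lists was that of Csnk1a1, a kinase of the destruction complex, by 1437923_at. It was -1.65 in mutants and -2.09 in wild types (SE 0.120 each), while the other 4 probe sets of Csnk1a1 gave between -0.04 and 0.31 in wild types without passing. Also called between wild types were Lrp6, Nkd2, Sfrp5, Ctnnbip1 and Fzd2, the last by 1418534_at only. That probe set gave -0.33, against -0.05 by 1418532_at and -0.07 by 1418533_s_at. Between mutants Fzd3, Fzd8, Sfrp5, Bcl9, Ctnnbip1, Gsk3b, Ccnd1 and Tnfrsf19 were called as well. The wild-type calls of Lrp6, Sfrp5, Nkd2 and Ctnnbip1 were lost in 17, 7, 4 and 1 of the settings. In mutants those of Fzd3 by 1434788_at, Fzd8, Tnfrsf19 and Fzd2 by 1418534_at were lost in 9, 5, 1 and 1.

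The authors' deposited table of the 4-group comparison, with a fold and an unadjusted p-value per probe set, was set beside these results. The p-value in the authors' deposited table was under 0.05 for 0 of the 17 member probe sets between mutants and wild types in BALB/cCrl (8.7% of all probe sets) and for 0 of 17 in FVB/N (10.1% of all). Between the mutants of the strains the authors' deposited table had 3 of 17 members under 0.05 (17.7% of all probe sets), Wnt3a at 0.0454 and Wnt5a at 0.0316 by 1448818_at and 0.0116 by 1456976_at. Between the wild types the authors' deposited table had 2 of 17 (20.2% of all), Wnt3a at 0.0364 and Wnt4 by 1441687_at at 0.00352. Per the file headers, these p-values come from t-tests of pairs of groups.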

How the data were processed

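Total RNA of 16 embryos was hybridised to Affymetrix mouse arrays. The log2 values used were deposited by the authors after normalisation of the 16 arrays together, and the submitters' processing notes name RMA and GCRMA, without versions or roles. The authors also deposited for each probe set a score, which is a signed fold change, and a p-value, besides 3 log2 tables made by gcRMA from single pairs of groups. Probe sets were named through the platform annotation, T and Tcf7 through the authors' deposited table. Of 45037 probe sets, 34945 had 1 symbol, 932 several and 9160 none. Positions and promoters are those of RefSeq on GRCm38.p6.

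All 16 arrays were fitted in limma 3.58.1 (R 4.3.3) with 1 mean per group and a spread that followed intensity. P-values were two-sided, adjusted by Benjamini and Hochberg over 45037 probe sets and called under 0.05. The fit and the correlations were tested on simulated data. Correlations (Python 3.11.15, numpy 2.4.6) used 100000 permutations within groups. Named genes were the members, Cecr2, for each list and contrast up to 4 called genes with the smallest p, and the 2 genes most like each member (for Wnt3, at background, not printed). Of the marker genes 1 is not reported here. Members and lists were chosen with earlier results of these data known. Alternatives were another spread model, only the arrays compared, 2 further normalisations, array weights, the gcRMA tables, a filter at a mean log2 of 5, a replicate block, and arrays left out. That embryos of a group came from separate litters is not stated, and the 4 arrays per group limit the precision.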

Additional observations from a re-analysis of the deposited data

Results flagged for a closer look

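In groups of 4 embryos, a value was noted where its gap to the nearest other embryo took up more of the group's range than Dixon's 95% critical value allows. Of 68 groups of member probe sets 5 met this, and chance gives about 1 in 20. Wnt5a by 1448818_at was 7.60 in FVB/N mutant 4, against 8.22 to 8.29 in the other FVB/N mutants, and by 1456976_at it was 6.17 in BALB/cCrl mutant 1, against 5.74 to 5.81 in the other BALB/cCrl mutants. Dkk1 by 1420360_at was 8.20 in FVB/N wild type 3, while the other FVB/N wild types had 8.81 to 8.87. Wnt4 by 1450782_at was 8.45 in BALB/cCrl mutant 2, with 8.74 to 8.76 in the others of its group, and 8.72 in BALB/cCrl wild type 3, with 8.60 to 8.61 in the others. FVB/N mutant 4 and FVB/N wild type 3 are the embryos with the lowest tail bud marker levels, 7.78 and 7.80. The part of these markers in the Wnt5a and Dkk1 values was not tested.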

How the results depend on the processing

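Of 2663 single values of member probe sets recomputed under the alternatives, 2657 kept their side of the threshold, 5 lost a call, 1 gained one, 0 called values changed sign, and 180 uncalled values did. The count of called members stayed at 0 in 5 comparisons under every alternative run. In mutants, BALB/cCrl against FVB/N, the count was 2, with a range of 1 to 2 leaving out the arrays one by one, and 1 without FVB/N wild type 3 and FVB/N mutant 4, a pair chosen after seeing the data. It was also 2 without FVB/N mutants 3 and 4, but then Wnt6 by 1435980_x_at took the place of Wnt5a by 1448818_at. The count of called pairs among the members, 1 over all embryos, ran from 0 to 3 when each embryo was left out. Counts over all probe sets moved more, from 9 to between 3 and 115 in BALB/cCrl, from 268 to between 13 and 471 in FVB/N, from 3036 to between 1527 and 4260 between wild types, from 34 to 14 without BALB/cCrl mutant 1 and 89 with the replicate block (higher still without BALB/cCrl wild type 3) for the interaction, and from 205 to between 70 and 759 for the mean effect, so the background shares carry that range. The lower ends for the strains and genotypes in single strains were those of the gcRMA tables, except for the mutants, whose count of 4861 ran from 3245 to 5016. With the replicate number as a replicate block the count of called members was 2 between mutants and 0 in the other comparisons. The deviations of same-numbered embryos of compared groups correlated at -0.15 to 0.17, and at 0.033 to 0.12 between the wild types. Embryos with different numbers were not correlated for reference, so whether the numbers pair the embryos was not tested. The block changed no member's call. Probe sets near background, Wnt3 and 1 of Wnt5a, limit what these arrays show.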
